A study of Homo sapiens with 12 samples.

Results

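NF-kB is a family of dimeric transcription factors built from the Rel subunits NFKB1 (p105/p50), NFKB2 (p100/p52), RELA (p65), RELB and REL. Inhibitors of the IkB type, here NFKBIA (IkBα) and NFKBIE (IkBε), hold the dimers inactive, TNFAIP3 (A20) is a ubiquitin-editing enzyme that shuts the upstream signal off, and the inhibitor-of-apoptosis proteins BIRC2 (cIAP1) and BIRC3 (cIAP2) are ubiquitin ligases of the TNF receptor complexes. The 10 genes were taken by symbol. All 10 have a row among the 26364 gene rows of the series, and all 10 were among the 14184 rows with enough reads to be tested.

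The RNA came from MDA-MB-231, a mesenchymal-like breast cancer line of human origin, classed as triple-negative. Wells received 1 µM dexamethasone (DEX), which activates the glucocorticoid receptor, together with 8 µM SH4-54, a compound made to block STAT3 and STAT5, DEX alone, SH4-54 alone or no drug, each for 24 h, with 3 wells in each of the 4 groups. The labels name no inducer of NF-kB, and the sources used here do not give the vehicle of the wells with no drug. In bulk RNA, fewer cells of a type and less RNA per cell cannot be told apart.

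In the canonical arm of the pathway, receptor signals activate the IkB kinase complex, IkB proteins are degraded and dimers of RELA, REL and p50 enter the nucleus. In the non-canonical arm, the kinase NIK (MAP3K14) accumulates once the complex of TRAF2, TRAF3 and the cIAP proteins stops degrading it, p100 is processed to p52 and dimers of RELB and p52 form. Many genes of the family, NFKBIA, NFKB2, RELB, TNFAIP3 and BIRC3 among them, are themselves induced by NF-kB, and NFKBIA is also a known glucocorticoid-induced gene.

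Counted reads per library numbered 26280158 to 35758236 with both compounds, 26040956 to 29426776 with DEX, 25577213 to 28864061 with SH4-54 and 28439725 to 31552360 with no drug. The mesenchymal markers VIM, CD44, ZEB1 and AXL were detected in every well, VIM at 798 to 1382 CPM (read counts scaled to library size), while SPARC had 0 to 8 reads. The summed CPM of these 5 mesenchymal markers was 2156 to 2545 with both compounds, 1820 to 1923 with DEX, 2710 to 2855 with SH4-54 and 2738 to 2798 with no drug. Of the receptor genes behind the triple-negative class, ESR1 had 0 to 6 reads and PGR 4 to 12 per well. ERBB2, which encodes HER2, had 1913 to 3017 reads (74.8 to 89.7 CPM) in every well. The class is not set by RNA level. The summed CPM of 5 leukocyte markers was 0.723 to 0.923 with both compounds, 0.806 to 0.985 with DEX, 0.970 to 1.52 with SH4-54 and 1.20 to 1.44 with no drug. The summed CPM of 5 luminal epithelial markers was 331 to 362 with both compounds, 384 to 402 with DEX, 322 to 358 with SH4-54 and 372 to 384 with no drug, most of it KRT18, and the part of these lists in the results was not tested. FKBP5, a standard glucocorticoid target, averaged 218 ± 47.1 CPM with both compounds, 326 ± 17.5 CPM with DEX, 54.3 ± 2.26 CPM with SH4-54 and 53.9 ± 1.56 CPM with no drug. NR3C1, the receptor gene, averaged 276 ± 7.70 CPM with both compounds, 275 ± 2.85 CPM with DEX, 480 ± 3.89 CPM with SH4-54 and 494 ± 6.09 CPM with no drug (SD, n = 3 each). STAT3, a target of SH4-54 as a protein, averaged 206 ± 13.3 CPM with both compounds, 228 ± 2.88 CPM with DEX, 196 ± 4.90 CPM with SH4-54 and 200 ± 2.0 CPM with no drug. Its log2 fold change was 0.19 with DEX against no drug (edgeR, adjusted p 0.00101) and -0.15 with both against DEX (0.0127). The combination wells were spread more widely than those of the other groups along the second principal component of all genes, which held 17.5% of the variance. They lay at 22.3, 31.4 and 13 for replicates 1, 2 and 3, against 2.11 to 6.52 with SH4-54. Replicate 2 was the farthest from the other groups, and results that rest on it are given with and without it. Replicate 3 lay about as far from replicate 1 on the other side, so replicate 2 was not the only well apart.

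RefSeq promoters (GRCh38.p14) were found for 8 of the 10 genes, 13 start sites in all, and not for RELB and NFKBIE. Each window of 250 bases before to 50 after the start was searched on both strands for the kB consensus, the binding motif of NF-kB dimers, and for the core of the glucocorticoid receptor element, ACANNNTGT. The kB consensus occurred in 7 of the 13 windows, those of 6 genes (REL, NFKB1, TNFAIP3, NFKB2, BIRC3 and NFKBIA), and in 11.3% of the 35116 promoter windows of the table. The glucocorticoid element core occurred in 0 of the 13 and in 5.37% of all windows. Shown first are the 250 bases upstream of BIRC3 and NFKBIA, the genes with the largest differences here, then of NFKB2, whose matches include an overlapping pair, and of BIRC2, the neighbour of BIRC3 in the RefSeq annotation of chromosome 11, which had no match. Capitals mark kB consensus matches.
BIRC3, chr11:102317234-102317483, plus strand: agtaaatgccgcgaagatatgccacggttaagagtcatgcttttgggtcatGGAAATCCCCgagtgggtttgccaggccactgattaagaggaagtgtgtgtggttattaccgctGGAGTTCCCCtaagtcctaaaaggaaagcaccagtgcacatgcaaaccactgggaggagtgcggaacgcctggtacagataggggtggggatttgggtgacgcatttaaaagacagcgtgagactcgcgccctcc
NFKBIA, chr14:35404750-35404999, minus strand: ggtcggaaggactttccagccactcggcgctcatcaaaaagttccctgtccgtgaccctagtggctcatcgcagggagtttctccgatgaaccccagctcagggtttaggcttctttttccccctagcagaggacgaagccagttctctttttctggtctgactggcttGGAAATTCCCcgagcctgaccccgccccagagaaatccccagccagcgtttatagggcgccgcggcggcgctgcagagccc
NFKB2 (second of 3 starts), chr10:102394328-102394577, plus strand: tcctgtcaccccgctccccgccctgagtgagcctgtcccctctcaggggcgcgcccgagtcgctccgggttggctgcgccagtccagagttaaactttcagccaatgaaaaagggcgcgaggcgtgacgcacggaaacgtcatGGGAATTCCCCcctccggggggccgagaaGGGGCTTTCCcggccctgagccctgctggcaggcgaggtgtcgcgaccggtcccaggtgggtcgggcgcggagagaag
BIRC2 (first of 2 starts), chr11:102346964-102347213, plus strand: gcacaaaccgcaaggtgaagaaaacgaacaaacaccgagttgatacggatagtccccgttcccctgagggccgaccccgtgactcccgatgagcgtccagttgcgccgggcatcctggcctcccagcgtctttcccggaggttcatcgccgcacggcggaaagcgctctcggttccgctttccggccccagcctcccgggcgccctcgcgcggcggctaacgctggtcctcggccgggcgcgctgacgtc
Counted from the start site, with negative numbers upstream, the BIRC3 matches begin at -199 and -135, both on the opposite strand, and the NFKBIA match at -81. In the NFKB2 window, matches on opposite strands begin at -107 and -106 and overlap, and the third begins at -78. A match is a description of these letters, and the counts per gene do not tell which start was used.

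With DEX alone, as compared with no drug, the 10 genes moved in opposite directions. BIRC3 and NFKBIA rose, while RELB, NFKB2, NFKBIE, BIRC2 and NFKB1 fell. In all, 2 of the 10 rose and 5 fell, against 21.9% higher and 23.2% lower among the 14184 genes tested (edgeR's quasi-likelihood test, adjusted p below 0.05). Their median log2 fold change was -0.16, and that of all genes -0.01.

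BIRC3, which restrains cell death downstream of TNF receptors, had 640, 671 and 641 CPM in DEX wells and 117, 120 and 131 CPM in wells with no drug. The DEX wells all lay far above the others, with no overlap. The log2 fold change was 2.41 ± 0.045 (SE), a 5.31-fold difference with an adjusted p of 1.87e-14, the third smallest p of all genes tested. NFKBIA, the inhibitor that NF-kB itself induces, had 126, 123 and 131 CPM in DEX wells and 62.1, 59.9 and 59.4 CPM with no drug. Every DEX well again lay above every well without drug, and NFKBIA rose by 1.07 ± 0.060 on the log2 scale (adjusted p 2.07e-09).

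RELB, the subunit of the non-canonical dimer, had 7.0, 8.19 and 8.21 CPM in DEX wells and 11.1, 11 and 11.5 CPM with no drug. All DEX wells were lower, and RELB fell by 0.52 ± 0.082 on the log2 scale (adjusted p 0.000112). NFKB2, which encodes the p52 precursor that pairs with RELB, had 25.6, 21.9 and 22.1 CPM in DEX wells and 32.5, 26.8 and 30.8 CPM with no drug. The groups came close to each other but did not overlap, and NFKB2 fell by 0.37 ± 0.077 (adjusted p 0.00109). NFKBIE had 17.0, 17.7 and 17.6 CPM in DEX wells and 25.2, 26.1 and 25.2 CPM with no drug. It fell by 0.55 ± 0.083 (adjusted p 7.88e-05), so the 2 IkB genes moved in opposite directions within the same wells.

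BIRC2 averaged 297 ± 8.97 CPM in DEX wells and 336 ± 15.6 CPM with no drug (SD, n = 3 each). It fell by 0.18 ± 0.053 on the log2 scale (adjusted p 0.0125), a call lost without DEX replicate 1 (0.0664), DEX replicate 3 (0.0719) or no-drug replicate 3 (0.0647). NFKB1, the p50 precursor gene, averaged 49.0 ± 2.61 CPM in DEX wells and 52.8 ± 1.08 CPM with no drug, a fall by 0.11 ± 0.041 with an adjusted p of 0.0451. That call stayed in only 1 of the 12 fits that left out a library, the one without DEX replicate 2, with adjusted p from 0.0298 to 0.356, and in 1 of the 7 other settings tried. The number of falls was 3 without DEX replicate 1, DEX replicate 3 or no-drug replicate 3. The remaining genes did not pass the test. RELA, the main activating subunit, differed by 0.04 with a 95% interval of -0.17 to 0.24, REL by -0.23 with an interval of -0.52 to 0.06, and TNFAIP3 by -0.13 with an interval of -0.32 to 0.05.

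**Figure D1:**
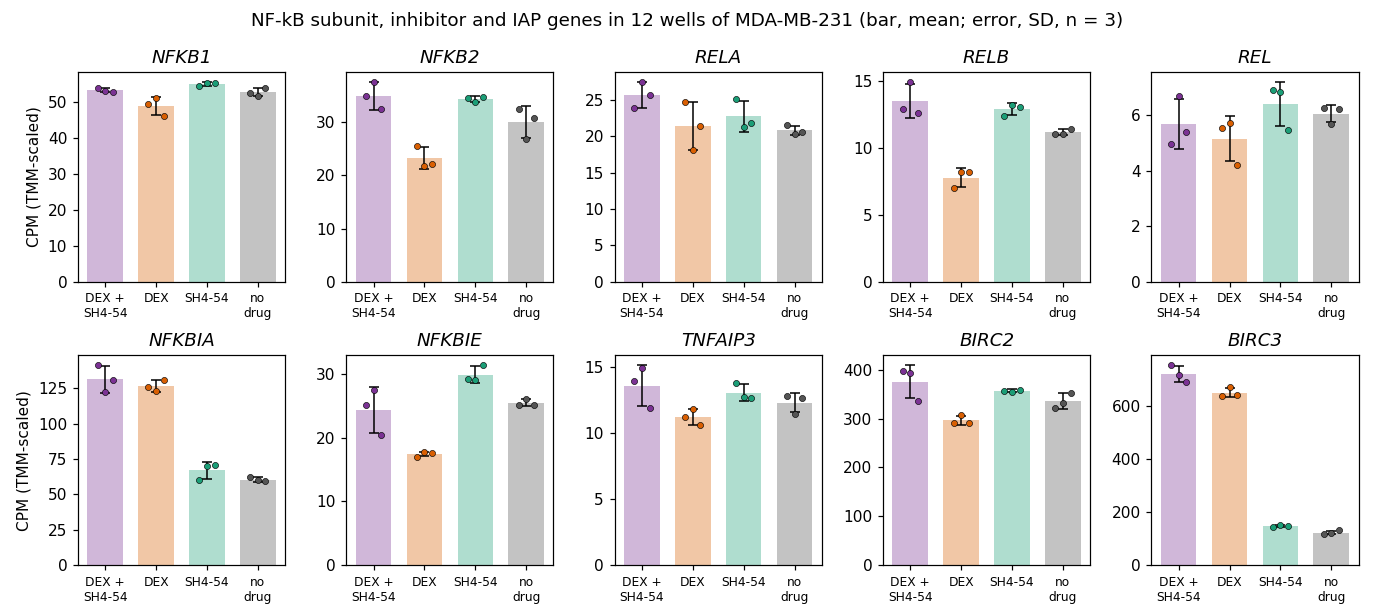
CPM (TMM-scaled) of each of the 10 genes in every well, with DEX + SH4-54, DEX, SH4-54 and no drug from left to right; bars are means, error bars SD over 3 wells and points single wells, on axes from 0 that differ between panels. BIRC3 and NFKBIA are high in both groups with DEX, while RELB, NFKB2 and NFKBIE are lowest with DEX alone.

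With SH4-54 alone, BIRC3 was the 1 of the 10 that rose, and 0 fell, against 0.268% of all genes higher and 0.331% lower. It had 142, 150 and 148 CPM in SH4-54 wells and 117, 120 and 131 CPM with no drug. The groups did not overlap, and BIRC3 rose by 0.26 ± 0.044 on the log2 scale (adjusted p 0.0109). The call was lost without SH4-54 replicate 2 (adjusted p 0.0637), SH4-54 replicate 3 (0.0504), no-drug replicate 1 (0.0604) or no-drug replicate 2 (0.0846).

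The other 9 genes had positive estimates with SH4-54, from 0.06 for NFKB1 to 0.23 for NFKBIE, none of which passed. The median over the 10 was 0.14 and that of all genes -0.004. RELB had 12.4, 13.3 and 13.1 CPM in SH4-54 wells and 11.1, 11 and 11.5 CPM with no drug. Its wells were all higher with SH4-54, and its estimate of 0.21 (95% interval 0.04 to 0.37) had an adjusted p of 0.267. NFKB2 was similar at 0.19 (0.03 to 0.36, adjusted p 0.284). None of the 5 further pathway lists described below had a gene called in either direction for SH4-54.

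When SH4-54 was added to DEX, most of the 10 genes were higher. In all, 8 were higher with both compounds than with DEX alone and 0 were lower, against 13% and 13.5% of all genes. The median log2 fold change was 0.27 over the 10 and 0.005 over all genes. The 2 genes that did not pass were REL, at 0.14 with a 95% interval of -0.16 to 0.44, and NFKBIA, at 0.05 with an interval of -0.07 to 0.18.

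Of the 10, RELB had the largest difference. It had 12.9, 15 and 12.6 CPM with both compounds and 7.0, 8.19 and 8.21 CPM with DEX alone. Each combination well exceeded each DEX well, and RELB rose by 0.79 ± 0.081, a 1.73-fold difference (adjusted p 1.83e-05). NFKB2 had 34.9, 37.6 and 32.4 CPM with both compounds and 25.6, 21.9 and 22.1 CPM with DEX. It rose by 0.59 ± 0.077 (adjusted p 0.000125), again with no overlap.

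NFKBIE had 25.1, 27.5 and 20.4 CPM with both compounds and 17.0, 17.7 and 17.6 CPM with DEX, a rise by 0.48 ± 0.084 (adjusted p 0.00108). BIRC2 had 397, 393 and 337 CPM with both and 292, 307 and 291 CPM with DEX, a rise by 0.34 ± 0.053 (adjusted p 0.000453). For each of these, combination replicate 3 lay nearest to the DEX wells without reaching them. These 4 calls were kept whichever library was left out and under every other setting tried. Without combination replicate 2 the rises were 0.69 for RELB, 0.52 for NFKB2, 0.36 for NFKBIE and 0.29 for BIRC2. In the same comparison the glucocorticoid target FKBP5 was lower by 0.58 (adjusted p 0.000963), or by 0.48 without combination replicate 2. FKBP5 is 1 of 6 glucocorticoid response genes looked at, with NR3C1, TSC22D3, PER1, DUSP1 and KLF9. Of the 6, 1 was higher, 2 were lower and 3 did not pass, beside 13% and 13.5% of all genes higher and lower. TSC22D3 differed by -0.18 (adjusted p 0.188) and NR3C1 by 0.005 (0.924). The mesenchymal marker VIM was higher by 0.42 (adjusted p 0.000302), and with DEX against no drug it fell by 0.64. With both compounds against DEX, 3 of the 4 tested mesenchymal markers were higher and 1 was lower. The part of these differences in the results on the 10 genes was not tested.

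The other 4 rises were smaller, and each lost its call when a single well was left out. NFKB1 rose by 0.12, RELA by 0.27, TNFAIP3 by 0.27 and BIRC3 by 0.15, with adjusted p of 0.0371, 0.0487, 0.0274 and 0.0178. Without combination replicate 2 these 4 adjusted p-values were 0.120, 0.199, 0.167 and 0.0606, and 4 of the 10 genes passed. The count of all genes higher fell as well in that fit, from 1851 to 923. Without combination replicate 1 or DEX replicate 3 the count of members was likewise 4, and without DEX replicate 1 it was 5. The range of the all-gene count over the left-out fits is given at the end. RELA in particular had 23.9, 27.5 and 25.6 CPM with both compounds and 24.8, 18.1 and 21.4 CPM with DEX, so the groups overlapped. Fitted to these groups alone, NFKB1, RELA and TNFAIP3 did not pass and 5 of the 10 were higher. BIRC3 had 755, 718 and 692 CPM with both, each above the highest DEX well at 671 CPM.

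**Figure D2:**
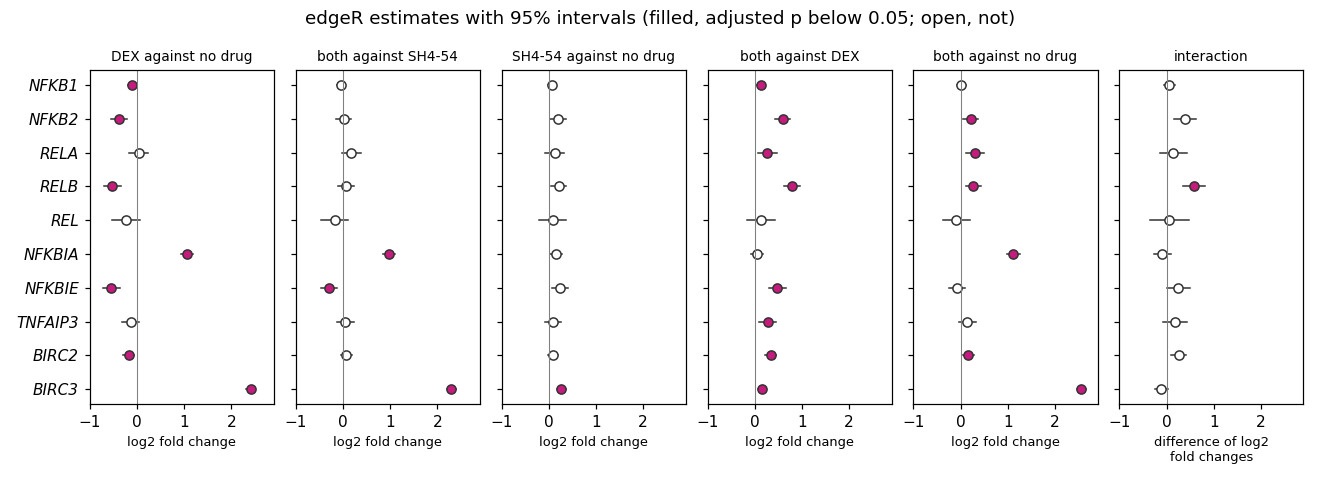
edgeR log2 fold change of each gene (points) with its 95% interval (lines) in each comparison; filled points passed an adjusted p of 0.05 and open points did not. In the panel of both compounds against DEX 8 points are filled and all 10 lie right of 0, and in the panel of SH4-54 against no drug BIRC3 alone is filled.

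The last panel of that plot of fold changes is the interaction, the effect of DEX in wells with SH4-54 minus its effect in wells without SH4-54. Of the 10 genes, 1 was higher in that test, RELB, and 0 were lower, against 2.44% and 1.46% of all genes. DEX changed RELB by 0.06 (95% interval -0.10 to 0.23) in wells with SH4-54 and by -0.52 (-0.69 to -0.34) in wells without it. The difference of 0.58 ± 0.112 had an adjusted p of 0.0143, and it kept its call in all 12 fits that left out a library, with adjusted p up to 0.0459 and a difference of 0.48 without combination replicate 2. FKBP5 had an interaction of -0.59 (adjusted p 0.0397), a call that 11 of the 12 left-out fits lost. Of the 6 glucocorticoid response genes it was the 1 that passed. VIM had an interaction of 0.49 (adjusted p 0.00949), a call that all 12 fits kept. The number of members higher in this test was 4 without combination replicate 3 and 2 without no-drug replicate 2. The count of all genes higher moved between fits too, with 346 in the full fit and 170 without combination replicate 2. Its range over the left-out fits is given at the end.

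NFKB2 and BIRC2 had interaction estimates of 0.40 ± 0.108 and 0.25 ± 0.075, with adjusted p of 0.0551 and 0.0713. Both passed with the DESeq2 Wald test, at 0.0194 and 0.0275, and without a count filter, at 0.0146 and 0.0192, and both were farther from the threshold without combination replicate 2, at 0.150 and 0.198. NFKBIE had 0.25 with an interval of -0.001 to 0.49. For the genes with the largest DEX effects of the 10, the interaction was -0.11 (-0.24 to 0.02) for BIRC3 and -0.09 (-0.27 to 0.09) for NFKBIA, neither of which passed.

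In wells that had SH4-54, DEX changed 3 of the 10. With both compounds against SH4-54 alone, 2 of the 10 were higher (20.1% of all genes) and 1 was lower (20.3%), with a median of 0.06 beside 0.005 for all genes. BIRC3 had 755, 718 and 692 CPM with both and 142, 150 and 148 CPM with SH4-54, a rise by 2.30 ± 0.045 (adjusted p 4.61e-14). NFKBIA had 141, 122 and 130 CPM with both and 60.2, 69.8 and 71.0 CPM with SH4-54, a rise by 0.97 ± 0.060 (adjusted p 9.59e-09). Neither gene's groups overlapped.

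NFKBIE was the member that fell with DEX in both settings. It had 25.1, 27.5 and 20.4 CPM with both compounds and 29.2, 29 and 31.4 CPM with SH4-54 alone, all combination wells being lower, and it fell by 0.30 ± 0.081 (adjusted p 0.00800). Without combination replicate 2, its highest combination well, the fall was by 0.40. For RELB, NFKB2 and BIRC2 the estimates were 0.06 (-0.10 to 0.23), 0.02 (-0.14 to 0.18) and 0.07 (-0.04 to 0.19), and none passed.

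**Figure D3:**
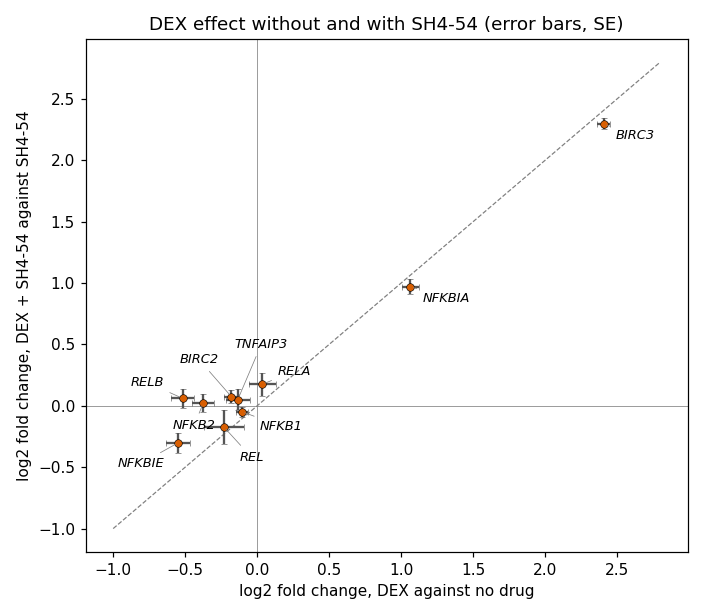
For each of the 10 genes, the log2 fold change of DEX + SH4-54 over SH4-54 (vertical) against that of DEX over no drug (horizontal), with SE as error bars and a dashed line of equal effects; the axes share no wells. BIRC3 and NFKBIA lie near the line, while RELB, NFKB2 and BIRC2 lie above it at vertical values near 0.

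Set against no drug, the combination left 6 of the 10 genes higher (21.1% of all genes) and 0 lower (21.6%), with a median of 0.19 beside 0.004. BIRC3 rose by 2.56 ± 0.045, a 5.89-fold difference with an adjusted p of 1.10e-14, and NFKBIA by 1.12 ± 0.060 (adjusted p 1.71e-09). RELA rose by 0.30, RELB by 0.27, NFKB2 by 0.22 and BIRC2 by 0.16, with adjusted p of 0.0168, 0.0108, 0.0301 and 0.0223. RELB had 12.9, 15 and 12.6 CPM with both and 11.1, 11 and 11.5 CPM with no drug. Its groups did not overlap, but those of NFKB2 and BIRC2 did. Without combination replicate 2 the 4 smaller rises lost their call, with adjusted p of 0.0635, 0.0573, 0.121 and 0.0848, and 2 of the 10 genes were left. Of all genes, 2728 were higher in that fit and 2992 in the full one. Without no-drug replicate 2 the count of members was 3. NFKB2 and BIRC2 also did not pass in a fit of these groups alone.

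The 3 combination wells differed among themselves more than the other groups did for several of these genes. Replicate 2 was the highest of the 3 for NFKB2, RELA, RELB, REL, NFKBIE and TNFAIP3, and the lowest for NFKBIA. It was also the lowest for FKBP5, at 181 CPM against 202 and 271 CPM in replicates 1 and 3. Replicate 3 was the lowest for BIRC2, BIRC3, NFKB2, RELB, NFKBIE and TNFAIP3. REL, whose estimates never passed, had 4.97, 6.70 and 5.41 CPM with both, 5.53, 5.72 and 4.22 CPM with DEX, 6.91, 6.83 and 5.48 CPM with SH4-54 and 6.26, 5.70 and 6.22 CPM with no drug. With 112 to 201 reads per well it had the fewest reads of the 10, and all its groups overlapped.

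Ratios of reads within a well do not depend on library scaling and show how members shifted against each other. BIRC3 over BIRC2 averaged 1.93 ± 0.117 with both compounds, 2.19 ± 0.00818 with DEX, 0.412 ± 0.0134 with SH4-54 and 0.365 ± 0.00437 with no drug (SD, n = 3 each). The ratio was above 1 in all 6 wells with DEX and below 1 in all 6 without it. It was lower in each combination well (1.90, 1.83 and 2.06) than in any DEX well (2.19, 2.19 and 2.20). NFKBIA over NFKBIE averaged 5.49 ± 0.989 with both, 7.27 ± 0.260 with DEX, 2.24 ± 0.173 with SH4-54 and 2.38 ± 0.0866 with no drug. Combination replicate 2 had the lowest of its group at 4.44, and all combination wells lay between the DEX wells and those without DEX. RELB over NFKB1 was 0.253 ± 0.0243 with both, 0.160 ± 0.0185 with DEX, 0.234 ± 0.00559 with SH4-54 and 0.212 ± 0.00101 with no drug. For this pair the DEX wells lay below all others. The same held for RELB over RELA, at up to 0.454 with DEX and from 0.492 in the other wells. It held narrowly for NFKB2 over NFKB1, at up to 0.516 with DEX and from 0.517 in the others.

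**Figure D4:**
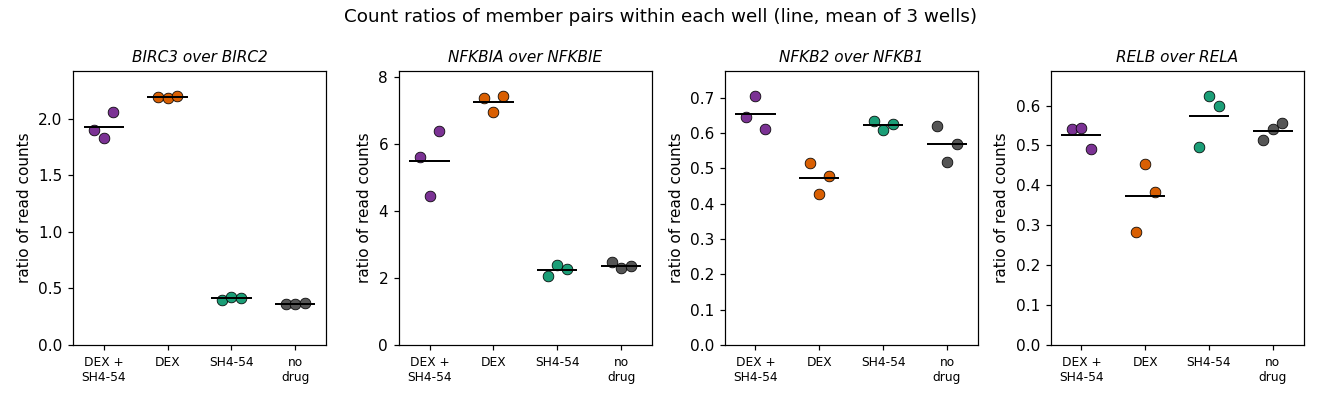
Ratio of read counts of gene pairs within each well (points) with group means (lines), for DEX + SH4-54, DEX, SH4-54 and no drug from left to right; axes start at 0, and read counts are not corrected for gene length. BIRC3 over BIRC2 and NFKBIA over NFKBIE are high in both groups with DEX, while NFKB2 over NFKB1 and RELB over RELA have their lowest mean with DEX alone.

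Levels of different genes can be set side by side per length. By CPM per kilobase of the longest GENCODE v29 protein-coding transcript, BIRC2 had the highest level of the 10 with no drug (82.6 ± 3.85), then NFKBIA (38.8 ± 0.914) and BIRC3 (23.6 ± 1.35). NFKB1, at 12.9 ± 0.264, was the highest of the subunits, followed by NFKB2 (8.79 ± 0.860), RELA (6.55 ± 0.194), RELB (4.88 ± 0.101) and REL (0.538 ± 0.0277). NFKBIE lay at 9.87 ± 0.206, and TNFAIP3 at 2.60 ± 0.152. Neighbours in this order differed by more than the SD of either gene. That SD is the spread between wells and does not cover the choice of transcript length, on which the order also rests. With both compounds BIRC3 stood first on this scale at 139 ± 6.04, above BIRC2 at 92.4 ± 8.30. With DEX alone BIRC3 had 125 ± 3.43, NFKBIA 81.2 ± 2.50 and BIRC2 72.9 ± 2.21 CPM per kilobase.

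The tested genes most like BIRC3 over the 12 wells, by Euclidean distance between centred log2 CPM values, were MT2A (0.377), RGS2 (0.699), FGD4 (0.800), MT1G (0.901) and PER1 (0.953), beside a median distance of 4.12 over 12431 genes. Nearest to RELB were SMAD7 (0.327), ID3 (0.386), SLC7A5 (0.404), SF3A2 (0.419) and FTL (0.429), with a median of 1.19. Nearest to NFKBIA were CDKN1A (0.251), ZC3H12A (0.261), PID1 (0.280), SH3BP4 (0.334) and SLC7A2 (0.345), with a median of 1.84. MT2A and MT1G encode metallothioneins, PER1 is a clock gene that glucocorticoids induce and SLC7A5 is an amino acid transporter.

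The other genes of the pathway are described by role, with the same test. Of 23 receptors and adaptors, DEX alone raised 5 and lowered 6, close to the 21.9% higher and 23.2% lower among all genes, with a median of -0.03. TLR4, the lipopolysaccharide receptor, averaged 311 ± 7.36 CPM with DEX and 90.7 ± 0.406 CPM with no drug, a rise by 1.78. The TNF receptor TNFRSF1A rose by 0.91 and the lymphotoxin-β receptor LTBR by 0.71, while TNFRSF11A (RANK) fell by 1.04 and the adaptor TRAF1 by 0.81. Adding SH4-54 to DEX raised 4 and lowered 4 of the 23 (13% and 13.5% of all genes). TNFRSF11A was higher by 0.59, TRAF2 by 0.26, TRAF3 by 0.25 and the TWEAK receptor TNFRSF12A by 0.24 with both compounds than with DEX, and RIPK1, a kinase of the TNF receptor complex, was lower by 0.17.

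Of 17 kinases and ubiquitin ligases, 1 rose and 4 fell with DEX alone, beside 21.9% and 23.2% of all genes, so the falls were at the share of all genes. The largest fall was that of MAP3K14, which encodes NIK. It averaged 46.3 ± 5.49 CPM with both compounds, 28.5 ± 1.22 with DEX, 53.0 ± 0.387 with SH4-54 and 47.2 ± 0.637 with no drug. DEX lowered it by 0.73 ± 0.067 on the log2 scale (adjusted p 4.67e-07), the combination exceeded DEX by 0.70 ± 0.068 (1.17e-05), and the interaction was 0.53 ± 0.094 (0.00940), a call kept in all 12 fits that left out a library. CHUK, the IkB kinase α gene, fell by 0.14, IKBKE by 0.21 and BTRC by 0.12, and RBCK1 rose by 0.15. Each of these 4 calls was lost without at least 1 library, the number of falls was 1 without DEX replicate 1, and the number of rises ran from 0 to 2. Adding SH4-54 to DEX raised 3 of the 17, MAP3K14, MAP3K8 (0.44) and RNF31 (0.16), and lowered 0, beside 13% and 13.5% of all genes. RNF31 did not pass without combination replicate 2 (adjusted p 0.128), and the count was 5 without combination replicate 3.

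TRAF2 and TRAF3, which hold NIK in check, also had their lowest levels with DEX alone. TRAF2 averaged 49.0 ± 2.59 CPM with both compounds, 40.7 ± 0.878 with DEX, 46.1 ± 0.891 with SH4-54 and 46.4 ± 0.906 with no drug. TRAF3 averaged 45.6 ± 1.03 CPM with both, 38.3 ± 0.184 with DEX, 49.7 ± 1.09 with SH4-54 and 48.6 ± 1.97 with no drug. Their interactions were 0.27 (adjusted p 0.0257) and 0.22 (0.0459), calls that were lost in 8 and 10 of the 12 fits that left out a library.

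Among the 15 tested of 16 other inhibitors and atypical IkB genes, 2 rose and 7 fell with DEX, beside 21.9% and 23.2% of all genes, with a median of -0.09. TNIP1, a partner of A20, rose by 0.81 and ZFP36, an RNA-binding protein that destabilises cytokine mRNA, by 1.39. NFKBIZ (IkBζ) fell by 0.68, CYLD, a deubiquitinase, by 0.54 and TRAFD1 by 0.38. With both compounds against DEX, CYLD was higher by 0.35 and NFKBIB (IkBβ) by 0.32, and ITCH was lower by 0.09. Without combination replicate 2 the rise of NFKBIB was 0.17 and did not pass (adjusted p 0.0841). CYLD was also called in the interaction at 0.26 (adjusted p 0.0291), which 7 of the 12 left-out fits lost.

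Of the 12 tested of 15 other IAP genes and death regulators, 3 rose and 1 fell with DEX, beside 21.9% and 23.2% of all genes. CFLAR, which encodes the caspase-8 inhibitor c-FLIP, averaged 64.9 ± 0.628 CPM with DEX and 35.8 ± 0.495 CPM with no drug, a rise by 0.86. MLKL rose by 0.33 and DIABLO by 0.22, and BIRC5 (survivin) fell by 0.53. With both compounds against SH4-54, 4 of the 12 were higher and 5 lower, beside 20.1% and 20.3% of all genes. XIAP, another member of the IAP family, was lower by 0.17 in that comparison, but with DEX alone it did not pass (-0.07, adjusted p 0.177). With both compounds against DEX, 1 of the 12 was higher and 3 were lower, beside 13% and 13.5%. BIRC5 was higher by 0.11, while CASP8 was lower by 0.17, FADD by 0.12 and CFLAR by 0.15. CFLAR averaged 58.4 ± 0.744 CPM with both. Without combination replicate 2 the counts were 0 and 1, and CFLAR was the 1 that still passed.

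Of the 27 tested of 33 genes commonly listed as NF-kB targets, 9 rose and 13 fell with DEX, beside 21.9% and 23.2% of all genes, with a median of -0.11. The chemokine genes CXCL3 and CXCL2 rose by 2.22 and 2.15 from low levels, and the syndecan gene SDC4 by 1.00. PLAU, the urokinase gene, fell by 1.81 and TNFAIP2 by 0.90. Adding SH4-54 to DEX raised 8 and lowered 4 of the 27, beside 13% and 13.5% of all genes. PTGS2, the cyclooxygenase-2 gene, averaged 10.3 ± 1.72 CPM with both and 3.69 ± 0.719 CPM with DEX, a rise by 1.47, and GADD45B rose by 0.47 and PLAU by 0.59, while ICAM1 was lower by 0.36. Without combination replicate 2 the rise of PLAU was 0.36. In the interaction 3 targets were higher and 1 was lower, beside 2.44% and 1.46% of all genes, counts that ran from 0 to 4 and from 0 to 7 over the left-out fits.

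**Figure D5:**
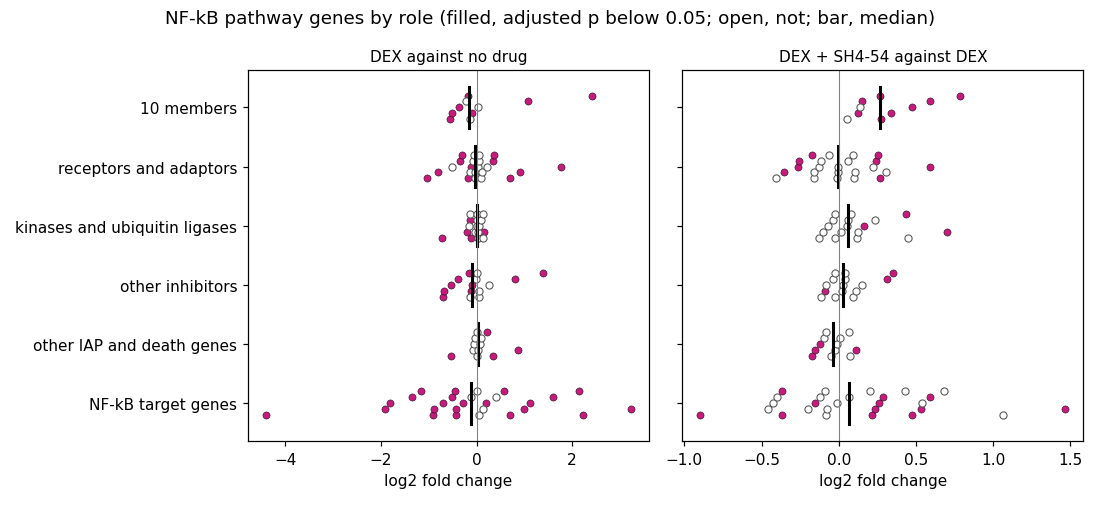
edgeR log2 fold change of each tested gene by role for DEX over no drug (left) and DEX + SH4-54 over DEX (right), with a bar at the median of each list; filled points passed an adjusted p of 0.05 and open points did not, and the horizontal scales differ. The 10 genes of the first row lie on both sides of 0 on the left and above 0 on the right, while every other list has points on both sides in both panels.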

How the data were processed

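The 10 genes and the gene lists were chosen with earlier results of these data known. Sample titles gave the groups and replicate numbers; the treatment tag of the SH4-54 samples reads SH5-54, and the title was used. The labels speak of replicate wells, so each p-value reflects the spread between wells, which may be technical.

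What the authors deposited is a single table of whole read counts, with 26364 gene symbols as rows, 4474 of them 0 in every library. HISAT2 2.1.0, SAMtools and featureCounts 1.5.1 were used on hg19, per the submitters' processing notes. The sources used here do not give the annotation, whether counting used strand, or how reads with several places were treated, so values of overlapping and closely related genes are uncertain.

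The counts went through filterByExpr by group, TMM scaling and 1 edgeR 4.0.16 quasi-likelihood model of the 4 groups (R 4.3.3) that used all 12 libraries. Benjamini-Hochberg adjustment covered all 14184 tested genes, and a gene was called at 0.05. The SE is the size of the log2 fold change divided by the square root of F. CPM are TMM-scaled, except the ranges and sums of the cell-type markers, which are scaled to counted reads alone. The log2 CPM for distances have a prior count of 2. The fits were also run on simulated counts. These held fewer changed genes than were called here with DEX, and no result rests on that run. RefSeq's promoters are on GRCh38.p14, another build than that of the counts, so no other coordinates are printed. Transcript lengths are GENCODE v29's.

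Named besides the 10 genes were up to 5 called genes per list and comparison, by smallest p, the check genes, and the 5 nearest patterns with a mean of at least 1 CPM. The TRAF2, TRAF3 and MAP3K14 levels over all groups and the order of the combination wells were described after their values were seen. Each result was recomputed with DESeq2's size factors in edgeR, with DESeq2 1.42.0 (Wald test), without the count filter, with a stricter one (1 CPM in 3 libraries, mean count of 20), with a block for the replicate number, in only the groups compared, without the 10 genes of highest abundance, and without each library in turn.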

Additional observations from a re-analysis of the deposited data

Results flagged for a closer look

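The DEX effect on RELB differed between wells with and without SH4-54. It was 0.06 on the log2 scale with SH4-54 and -0.52 without it, a difference of 0.58 with an adjusted p of 0.0143 (edgeR). All 3 wells with DEX alone lay below all other wells, at 7.0 to 8.21 CPM against 11 to 15 CPM. The difference was the only one of the 10 interaction tests to pass, and the cause was not tested.

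The rule named 14 other genes because they passed the same test, with adjusted p from 0.00940 to 0.0471 (edgeR). That they passed was thus set by the rule. Of all genes tested, 2.44% were higher and 1.46% lower in the interaction. The DEX effect was higher with SH4-54 than without it by 0.96 for PTGS2, 0.62 for PLAU, 0.53 for MAP3K14, 0.53 for TNFRSF11A, 0.49 for VIM, 0.33 for PTX3, 0.27 for TRAF2, 0.26 for CYLD, 0.23 for BIRC5 and 0.22 for TRAF3. The difference was -0.59 for FKBP5, -0.41 for TLR4, -0.30 for ICAM1 and -0.22 for RIPK1. The calls on MAP3K14 and VIM were kept whichever library was left out, and each of the other 12 was lost in 6 to 11 of the 12 left-out fits.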

How the results depend on the processing

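Of the 26 calls on the 10 genes over the 6 comparisons, 15 were kept in every left-out fit and under every other setting, among them each call on NFKBIA, the DEX calls on BIRC3, RELB, NFKB2 and NFKBIE and the RELB interaction. The largest shift of the all-gene median was 0.021. For SH4-54 against no drug, the 38 higher and 47 lower genes became 76 and 109 with the DESeq2 Wald test, 82 and 94 with no count filter and 70 and 82 in the compared groups alone, where 2 members were higher. For the interaction, 207 lower genes became 370 with DESeq2 and 389 with no filter. In the other direction, the 1 higher member, beside 346 higher genes in the full fit, became 3 with each. The counts of lower genes are no background for that change. In the compared groups alone, 5 members were higher with both compounds than with DEX. The cause of these shifts was not tested.

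Over the fits that left out 1 library, members lower with DEX numbered 3 to 5. Members higher numbered 0 to 2 with SH4-54, 2 to 7 with both against no drug, 4 to 8 with both against DEX and 1 to 4 in the interaction. Genes numbered 19 to 72 higher and 11 to 93 lower with SH4-54, 923 to 2026 higher with both against DEX, and 109 to 845 higher and 68 to 1186 lower in the interaction. Estimates that changed sign had passed neither in the full fit nor in the left-out one. With both compounds against DEX, NFKBIA ranged from -0.0151 (without combination replicate 1) to 0.0879 and REL from -0.0022 (without combination replicate 2) to 0.211. With both against SH4-54 and without combination replicate 2, NFKB2 was at -0.0368, RELB at -0.0206 and TNFAIP3 at -0.0270, while their highest values were 0.0717, 0.108 and 0.141. NFKBIE with both against no drug ranged from -0.170 to 0.0484 (without combination replicate 3), and RELA with DEX from -0.0658 (without DEX replicate 1) to 0.161. In the interaction, REL ranged from -0.0893 (without combination replicate 2) to 0.125, with -0.0864 without DEX replicate 3 and -0.0406 without SH4-54 replicate 3, and NFKB1 from -0.0019 (without DEX replicate 3) to 0.0766.

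Libraries of the same replicate number did not deviate together (r from -0.0975 to 0.0926 over 18 pairs), so the numbers were not taken as pairs. With the replicate number as a block, NFKB1 lost its call with DEX (adjusted p 0.0678) and with both against DEX (0.0580), and the other calls on the 10 genes stayed. REL, with 112 to 201 reads per well, had the widest 95% interval of the 10 genes in every comparison, and its differences did not pass at this depth.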
